A study of Canis lupus familiaris with 13 samples.

Results

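The resting transcriptome of the canine biceps femoris, a muscle of the hind thigh, was described from the 3 libraries labelled as basal, which carry sample number 0, out of 13 libraries in the series. They came from dogs 2, 3 and 4, with 1 biopsy per dog. No basal library of dog 1 was analysed here. The dogs were wild type and 9 to 10 months old, and all the groups used here share that genotype and age. A biopsy was cut from the muscle under local anaesthesia through a small skin incision and frozen in liquid nitrogen at once, and total RNA was turned into full-length cDNA with a SMART-Seq kit and tagged with Nextera XT. Where other biopsies of the same dogs are mentioned, they are the insulin-stimulated libraries with sample numbers 1 and 2 of dogs 2, 3 and 4, which served only to show whether a difference between dogs was seen again. Basal and insulin levels were not tested against each other.

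A skeletal muscle fibre is filled with sarcomeres, in which thick filaments of myosin slide along thin filaments of actin, tropomyosin and troponin, with titin and nebulin as molecular rulers and the Z disc as anchor. Slow fibres carry the myosin heavy chain MYH7 and live mainly on mitochondrial respiration, whereas fast fibres carry MYH2, MYH1 or MYH4 and depend more on glycogen breakdown and glycolysis. Creatine kinase buffers ATP between these supplies and the contracting filaments. A biopsy also holds vessels, connective tissue, nerve and immune cells. In such bulk RNA, fewer cells of a type and less RNA per cell cannot be told apart.

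The basal libraries held 68278235 counts in dog 2, 57605455 in dog 3 and 45200416 in dog 4, within the range of the series (45200416 to 81948641). Of 30951 genes in the table, 10868 had no count in any basal library and 9583 had a CPM (counts per 1000000 counts of the library) of at least 1 in each of the 3, among them 9374 protein-coding genes and 157 of the long non-coding RNA (lncRNA) biotype. Levels below are given as a share, which is a gene's percentage of all counts in its library, or as CPM further scaled by trimmed mean of M values (TMM) over the 3 basal libraries. Both grow with transcript length, for which no values came with the data, so a higher share of counts does not mean more molecules. The 5 muscle markers were abundant in each library: the share of ACTA1, skeletal muscle actin, was 10.9%, 10.8% and 11.97% in dogs 2, 3 and 4, and the lowest share of any of ACTA1, CKM, TTN, MYH2 and MYH7 in any library was 0.570%, for MYH7 in dog 2. Each library stood apart in some genes: that of dog 3 was highest for connective tissue and vessel genes, that of dog 2 for the immediate early genes FOS and EGR1, and that of dog 4 for mitochondrially encoded genes. Where the count of genes with a large spread in a class or list changes most without 1 library, the count without it is also given.

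Counts were concentrated in few genes. In the mean of the 3 libraries, 27 genes held 50% of all counts and 2085 held 90%. Taken singly, the libraries needed 23 genes in dog 2, 31 in dog 3 and 27 in dog 4 to reach 50%. The 10 highest genes held 35.7% and the 100 highest 63.3% of the mean share. The lists of the top genes overlapped closely: 7 of the top 10, 22 of the top 25 and 82 of the top 100 were shared by all 3 libraries. Grouped by mean level, 89 genes at 1000 CPM or more held 62.3% of counts, 816 genes at 100 to under 1000 CPM held 20.2%, 4740 genes at 10 to under 100 CPM held 15.2%, and 4865 genes at 1 to under 10 CPM held 2.12%.

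After ACTA1 (mean 11.2% ± 0.656, SD, n = 3), the highest gene was CKM, the muscle creatine kinase, at 6.58%, 7.52% and 9.15% in dogs 2, 3 and 4. Next in rank, ENSCAFG00000008221, is protein coding but carries no symbol in the table, and held 3.94%, 3.03% and 2.63%. TTN, which encodes titin, held 2.96%, 3.08% and 2.88%. GAPDH, a glycolytic enzyme, held 3.16%, 2.76% and 2.31%. The order of these shares differed between libraries: GAPDH stood above TTN in dog 2 and below it in dogs 3 and 4. The next genes were the myosin heavy chains MYH1 and MYH2, the fast light chain MYL1, glycogen phosphorylase PYGM and the fast calcium pump ATP2A1, with mean shares from 2.17% down to 1.31%. MYH7, TPM2, MYBPC1, TPM1, MYL2, NEB, DES, TNNT3, ENO3 and MYLPF followed, with mean shares from 1.27% to 0.783%. Of the 25 highest genes, 3 belonged to none of the classes: the unnamed gene, CA2 and ACOT8.

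CA2, a carbonic anhydrase, held 0.600%, 0.862% and 0.662% in dogs 2, 3 and 4. ACOT8, an acyl-CoA thioesterase of peroxisomes, held 1.02%, 0.565% and 0.436%. Each lies close to a muscle gene in the RefSeq gene order of another dog assembly (UU_Cfam_GSD_1.0): CA3, the muscle carbonic anhydrase, is the neighbour of CA2, and 1 gene (SNX21) stands between ACOT8 and TNNC2, the fast troponin C. Neither CA3 nor TNNC2 has a row under its symbol in the deposited table. The kit does not mark strand, and whether reads of these neighbours entered the counts of CA2 and ACOT8 was not tested. ALDOA, PKM, LDHA and PVALB, which are abundant muscle transcripts, have no row under their symbols either, so the class sums below do not include them.

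**Figure D1:**
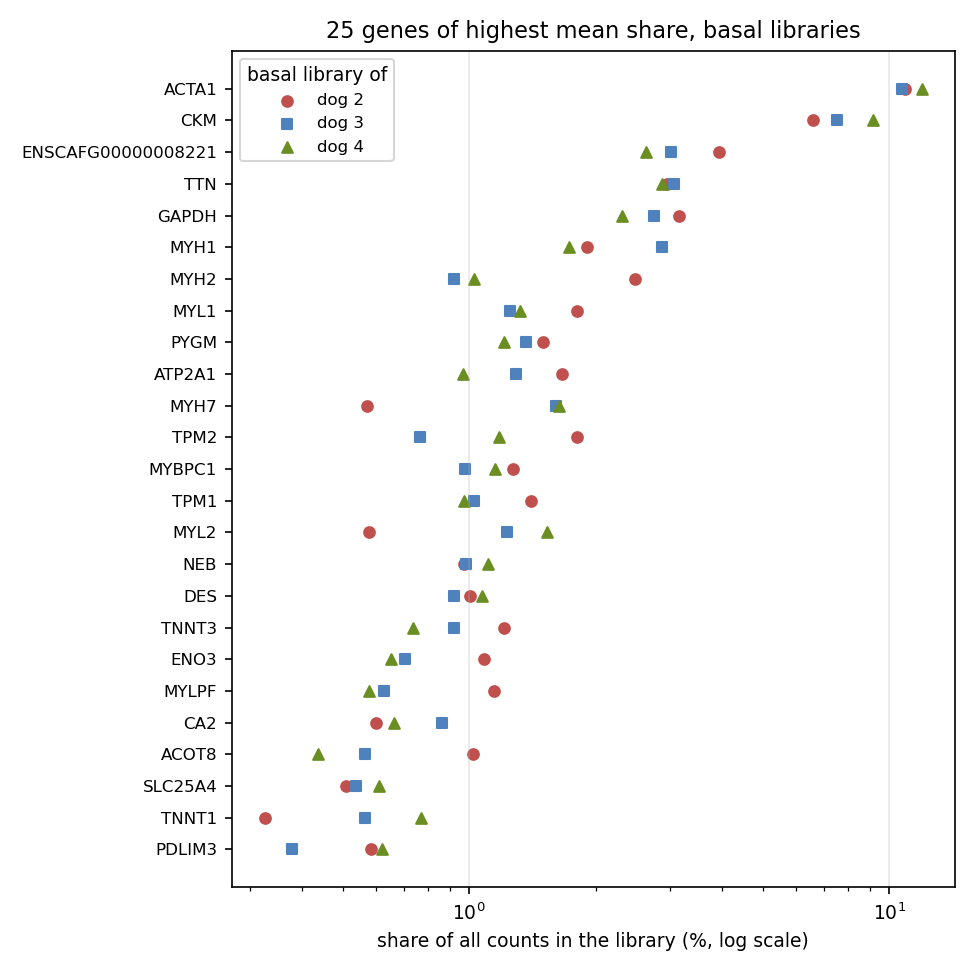
Share of all counts (%, log scale) of the 25 genes with the highest mean share, with 1 symbol per basal library of dogs 2, 3 and 4. ACTA1 and TTN lie close together across the 3 libraries, while MYH2, MYH7 and MYL2 are spread, with the library of dog 2 on the opposite side for MYH2 from that for MYH7 and MYL2.

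Contractile genes held more than any other class. The 76 contractile genes found summed to 36.3%, 34.03% and 35.99% of counts in dogs 2, 3 and 4 (35.4% ± 1.22, SD, n = 3), so the class total differed by 1.07-fold between the highest and lowest library. Thin filament genes held 17.4% ± 0.964, of which ACTA1 alone was 64.6%. Thick filament genes held 10.4% ± 0.339, with MYH1 the highest and the top 3 genes making up 49.1% of the list. Genes of the Z disc, titin and the costamere held 7.69% ± 0.387, of which TTN was 38.7%. By TMM-scaled CPM, the scale used for single genes below, the 74 contractile genes that passed the filter given there summed to 392153, 300950 and 376397 CPM, lowest in dog 3 and with a ratio of 1.30 between the highest and lowest library.

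Energy supply genes followed. The energy buffer class, 10 genes of creatine and adenylate turnover with myoglobin among them, held 7.496%, 8.54% and 10.1%, and CKM made up 89.1% of its mean. The 143 mitochondrial genes held 6.95%, 8.13% and 9.35%, and the 39 genes of glycolysis and glycogen held 7.56%, 6.40% and 5.57%. By share, mitochondrial and energy buffer genes were highest in dog 4 and lowest in dog 2, and glycolytic genes ran the other way. With TMM scaling, the lowest library became that of dog 3 for each of these 3 classes, while dog 4 remained highest for the mitochondrial and energy buffer sums and dog 2 for the glycolytic sum. Within the mitochondrial class, nuclear genes of oxidative phosphorylation held 3.68% ± 0.266, genes of the citrate cycle and pyruvate dehydrogenase 1.43% ± 0.256, carriers and import genes 1.40% ± 0.180, mitochondrially encoded protein genes 0.829% ± 0.327 and genes of fatty acid uptake and oxidation 0.800% ± 0.215. The highest members were SLC25A4, the ADP/ATP carrier of muscle mitochondria (0.553%), ATP5F1B and ATP5F1A, subunits of ATP synthase (0.471% and 0.363%), and MT-CO1, a subunit of cytochrome oxidase encoded in mitochondrial DNA (0.258%).

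The other classes were small. Calcium handling genes held 2.19% ± 0.403, with ATP2A1, the fast calcium pump of the sarcoplasmic reticulum, at 59.8% of the list. Translation genes held 1.40% ± 0.0947, and chaperones 0.538% ± 0.0536. The 424 transcription factor genes held 1.26%, 1.20% and 1.14% (1.20% ± 0.0586), and YBX3, a Y-box protein that also binds RNA, made up 37.3% of that. Other transcription factors with high shares were LMCD1, a LIM protein (0.0550%), ATF4, which controls the amino acid stress response (0.0457%), and MEF2C, an activator of muscle genes (0.0302%). Of 278 transcription factor genes at a mean of 1 CPM or more, the median level was 10.3 CPM and 11 reached 100 CPM.

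Matrix genes held 0.149%, 0.677% and 0.0932% in dogs 2, 3 and 4, a 7.27-fold range, and secreted factors and plasma proteins held 0.163%, 0.297% and 0.109%. Without the library of dog 3, the mean matrix share was 0.121% and the mean secreted share 0.136%, against 0.307% and 0.189% with it. DCN, which encodes the collagen-binding proteoglycan decorin, was the highest matrix gene, at 0.0330%, 0.135% and 0.0147%. GSN, which encodes the actin-severing protein gelsolin in its plasma and cellular forms, was the highest of the secreted class (0.0391%). The mitochondrial ribosomal RNA genes held 0.143% ± 0.0174.

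LncRNA genes held 0.214%, 0.231% and 0.185% (0.210% ± 0.0231), spread over 7077 genes of which 200 passed the filter used below. This biotype has limits as a class in the table: 25 of its genes carry a symbol, RefSeq lists all 25 of those symbols as protein coding, and they held 0.0527% of counts. The remaining 7052 genes without a symbol held 0.157%. The highest lncRNA gene, ENSCAFG00000032829, has no symbol and stood at 323, 277 and 232 CPM in dogs 2, 3 and 4. The genes next in rank were BANF1, which encodes a chromatin-binding protein, and JUN, which encodes a subunit of the transcription factor AP-1.

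**Figure D2:**
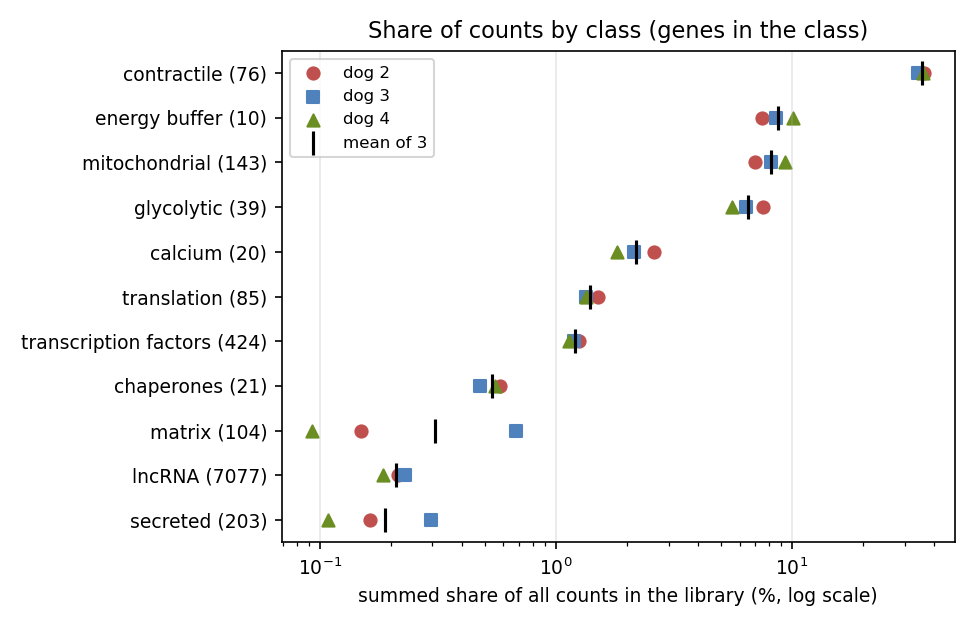
Summed share of all counts (%, log scale) of each class in the basal libraries of dogs 2, 3 and 4, with the mean of the 3 as a bar and the number of genes in brackets. Contractile shares lie between 34.03% and 36.3%, and matrix and secreted genes are the classes whose symbols lie farthest apart.

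Steadiness was measured as the ratio of the highest to the lowest of the 3 libraries in TMM-scaled CPM, for the 10510 genes with a mean of at least 1 CPM and at least 10 counts in at least 1 library. A gene high in 1 library alone can pass this filter through that library, and then counts as highest there. The median ratio was 1.48, and the median coefficient of variation was 20.5%, against 3.89% for counting error alone. A ratio over 2, called unsteady here, was found for 2653 genes, which is 25.2% of those measured. A highest value no more than 25% above the lowest, called steady, was found for 2307 genes (22%). At any ratio, 33.4% of the 10510 genes were highest in dog 2, 35.2% in dog 3 and 31.4% in dog 4. Of the unsteady genes, 1599 were highest in dog 3, 650 in dog 2 and 404 in dog 4. Between the remaining pair of libraries, 904 genes had a ratio over 2 without dog 3, 1702 without dog 2 and 2012 without dog 4. Fewer genes were unsteady at higher levels: 38.7% at 1 to under 10 CPM, 13.7% at 10 to under 100 CPM and 12.4% at 100 to under 1000 CPM. Among the 89 genes at 1000 CPM or more it was 21.3%. The libraries of dogs 2 and 4 were the closest pair, with 730 genes over 2-fold apart, against 1567 for dogs 2 and 3 and 1302 for dogs 3 and 4. Across the 10510 genes, Pearson's r of log2 CPM was 0.97, 0.94 and 0.95 for these pairs in that order, over genes that are not independent and pairs that share a library.

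Classes differed in how many of their measured members were unsteady. Against 25.2% of all genes, the share was 97.3% of matrix genes (71 of 73), 87.0% of secreted genes (94 of 108), 37.8% of contractile genes (28 of 74), 29.7% of glycolytic genes (11 of 37), 28.1% of transcription factors (78 of 278), 13.5% of mitochondrial genes (19 of 141) and 6.25% of translation genes (5 of 80). It was 37.5% of lncRNA genes (75 of 200), whose median level, 3.16 CPM, lies in the range where 38.7% of all genes were unsteady. The shares for glycolytic genes and transcription factors were near that of all genes. At 100 to under 1000 CPM, however, 12.4% of all genes were unsteady. The median levels of contractile (649 CPM), glycolytic (175 CPM), mitochondrial (349 CPM) and translation genes (121 CPM) lie in that range. The mitochondrial share was near the share of all genes at that level. These counts rest in part on single libraries: without that of dog 3, 41.8% of matrix and 43.6% of secreted genes had a ratio over 2, and without that of dog 2, 6.76% of contractile genes did. For glycolytic genes it was 13.5% without dog 2 and 8.11% without dog 3. For transcription factors it was 13.7% and 12.9%, and for lncRNA genes 19.1% and 22.4%, in the same order. For mitochondrial genes it was 7.80% without dog 2 and 2.13% without dog 4, and for contractile genes without dog 4 it was 24.3%. A pair of libraries has a smaller range than 3 by construction.

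**Figure D3:**
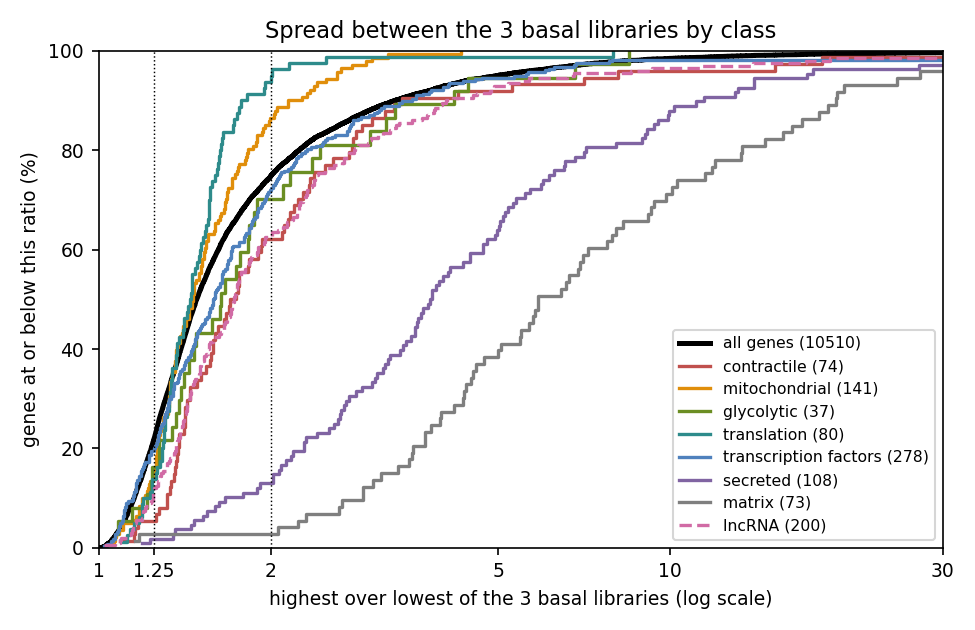
Cumulative percentage of genes (y axis) at or below each ratio of the highest to the lowest basal library (x axis, log scale), for all 10510 genes and by class, with the number of genes in brackets and dotted lines at a highest value 25% above the lowest and at a ratio of 2. Translation and mitochondrial genes lie above the line of all genes at a ratio of 2, and secreted and matrix genes lie far below it.

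The steadiest of the very abundant genes included metabolic enzymes. AMPD1, the muscle AMP deaminase, stood at 561, 569 and 578 CPM in dogs 2, 3 and 4, a ratio of 1.03. Myoglobin, MB, stood at 4511, 4631 and 4880 CPM, a ratio of 1.08. PGK1 and PFKM, enzymes of glycolysis, had ratios of 1.07 and 1.08, and VDAC2, a channel of the outer mitochondrial membrane, 1.07. TTN had a ratio of 1.17 and ACTA1 of 1.32. The 10 named genes with the lowest ratios at 10 CPM or more were TRIM72, YIPF2, ANKLE2, ITGB1, RNF220, NUB1, LIMK2, HPS4, SYS1 and C7orf25. TRIM72, which encodes a membrane repair protein of muscle, stood at 206.1, 206.4 and 206.3 CPM. Such closeness depends on the scaling: by library total alone, the ratio of TRIM72 was 1.22, and those of AMPD1 and MB were 1.24 and 1.26.

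Within the mitochondrial class, genes encoded in the nucleus and in mitochondrial DNA differed in spread. Of 58 nuclear oxidative phosphorylation genes measured, 1 had a ratio over 2 and the median ratio was 1.33. Of the 13 mitochondrially encoded protein genes, 6 did, the median was 1.99, and all 13 were highest in dog 4 under each of the 4 scalings tried. Without the library of dog 4, none of the 13 had a ratio over 2, against 5 without dog 2 and 4 without dog 3. The summed share of these 13 genes was 0.619%, 0.662% and 1.21% in dogs 2, 3 and 4. MT-CO1 stood at 1927, 1729 and 4174 CPM, so that the values of dogs 2 and 3 lay together and that of dog 4 apart. In other biopsies the order was different: the 13 genes held 0.497%, 1.49% and 0.536% in sample 1 and 0.595%, 1.17% and 0.547% in sample 2, highest in dog 3 both times. The nuclear list held between 3.37% and 4.01% in the basal, sample 1 and sample 2 libraries of these dogs. Fatty acid genes were unsteady in 9 of 25 (36%, against 25.2% of all genes) and in 2 of 25 without the library of dog 4. Of the 25, 22 were highest in dog 4 (17 by library total alone), as were 31.4% of all genes. Among them LPL, lipoprotein lipase, stood at 239, 240 and 702 CPM, and FABP3, a fatty acid carrier of the cytosol, at 623, 472 and 1123 CPM.

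Ribosomal protein genes varied together and by little. Of 66 measured, 56 were highest in dog 2 (51 by library total alone), against 33.4% of all genes, yet 4 had a ratio over 2 (2 without dog 2). Their summed share was 1.10%, 0.967% and 0.965% in dogs 2, 3 and 4. RPL3L, the form of the ribosomal protein L3 restricted to heart and skeletal muscle, had the highest share of them, at 958, 709 and 1017 CPM, and was itself highest in dog 4.

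The contractile genes with large ratios included the myosin heavy chains that mark slow and fast fibres. MYH2 stood at 26766, 8127 and 10758 CPM in dogs 2, 3 and 4, and MYH7 at 6165, 14221 and 17112 CPM. MYH2 was high in dog 2 and low in dogs 3 and 4, and MYH7 the reverse. Of the counts of MYH1, MYH2, MYH4 and MYH7 together, which were 4.92% ± 0.511 of the library, MYH1 took 38.4%, 53.2% and 39.3%. MYH2 took 49.8%, 17.0% and 23.4% of these counts, and MYH7 took 11.5%, 29.7% and 37.3%. MYH4, the heavy chain of the fastest fibres, took 0.290%, 0.0528% and 0.0418%. MYH1 was thus the largest of the 4 in dogs 3 and 4 and MYH2 in dog 2, and MYH4 was the smallest in each.

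Most genes of a slow and a fast fibre list went along with MYH7 and MYH2. The lists hold heavy chains themselves, MYH7 and MYH7B in the slow and MYH1, MYH2 and MYH4 in the fast list. The counts below are therefore in part counts of the heavy chains. Of 15 slow fibre genes, 14 were highest in dog 4 (13 by library total alone), against 31.4% of all genes. Of the 15, 12 were lowest in dog 2, against 3524 of all 10510 genes. A ratio over 2 was found for 11 (73.3%, against 25.2% of all genes). The median log2 difference of dog 2 against dog 4 was -1.32 over these 15. Among them were TPM3, the slow tropomyosin, at 855, 2785 and 4526 CPM, MYL3, a slow light chain, at 1125, 2268 and 3815 CPM, and CASQ2 and PLN, which store calcium and restrain the calcium pump in slow fibres, with ratios of 5.13 and 4.99. The exception to the pattern was LMOD2, a cap of the thin filament, at 32.1, 14.1 and 13.7 CPM. Of 13 fast fibre genes, 12 were highest in dog 2, against 33.4% of all genes. Of the same 13, 4 had a ratio over 2, a share (30.8%) near the 25.2% of all genes, and the median log2 difference of dog 2 against dog 4 was 0.76. ACTN3, the fast Z disc protein, stood at 3327, 1795 and 1194 CPM. MYLPF, the fast regulatory light chain, stood at 12384, 5554 and 6023 CPM. MYH1 was the fast gene highest in another dog, dog 3. The summed share of the slow list was 0.159 times that of the fast list in dog 2, 0.460 in dog 3 and 0.670 in dog 4. Without the library of dog 2, 2 of the 15 slow genes and none of the 13 fast genes had a ratio over 2.

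The myosin profile also varied between biopsies of 1 dog. In dog 2, MYH7 took 11.5% of the 4 heavy chains in the basal library, 26.4% in sample 1 and 11.7% in sample 2, a span somewhat smaller than that between the basal libraries of dogs 2 and 3. In dog 3 it took 29.7%, 27.6% and 27.4%, and in dog 4 37.3%, 35.5% and 33.6%, so these dogs varied less between biopsies. As a share of the 4 heavy chains, MYH7 was lowest in dog 2 and highest in dog 4 in all 3 sets of biopsies. MYH2 was highest in dog 2. By CPM, MYH7 was lowest in dog 3 in sample 1, at 15151, 13193 and 16578 CPM in dogs 2, 3 and 4.

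**Figure D4:**
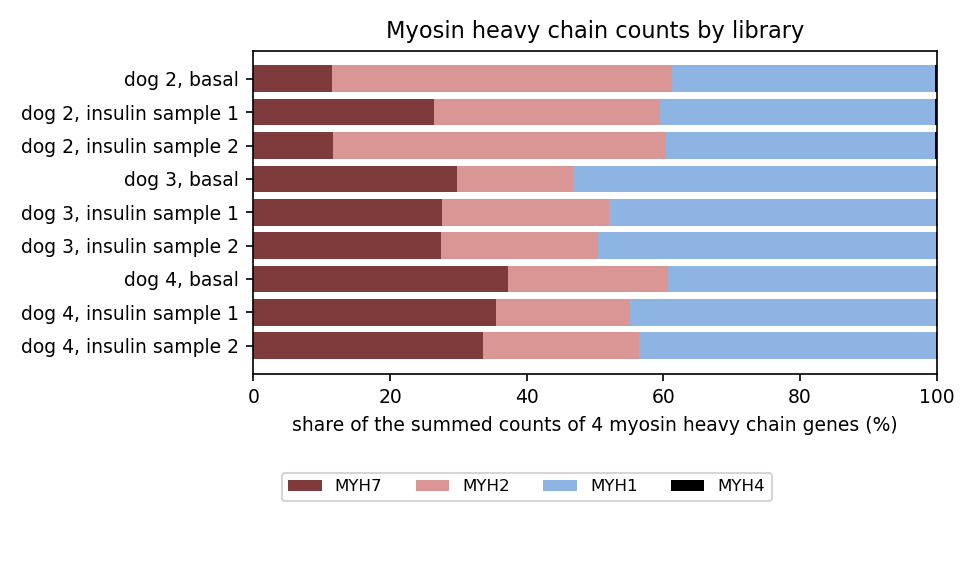
Share of the summed counts of 4 myosin heavy chain genes (%, x axis) in the basal, sample 1 and sample 2 libraries of dogs 2, 3 and 4. Within the basal libraries, MYH7 runs from 11.5% in dog 2 to 37.3% in dog 4, and the MYH4 part, at most 0.290% there, is barely visible at the right edge.

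Other genes of the fibre also had large ratios. ANKRD1, a titin-binding protein made on stretch or damage, stood at 957, 55.6 and 30.8 CPM in dogs 2, 3 and 4. TRDN, triadin of the calcium release unit, stood at 1725, 331 and 359 CPM, and HSPB1, a small heat shock protein, at 1066, 96.7 and 518 CPM. In each case dog 2 was highest. For TRDN and HSPB1 it was highest in samples 1 and 2 as well, with HSPB1 at 688, 153 and 512 CPM in sample 1 and 1471, 142 and 492 CPM in sample 2. ANKRD1 was highest in dog 3 in sample 1.

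The 10 named genes with the highest ratios at 10 CPM or more differed in which dog stood apart. FOS, EGR1 and ATF3, transcription factors induced within minutes by stress or growth signals, were high in dog 2: FOS stood at 241, 2.06 and 2.24 CPM, EGR1 at 130, 2.24 and 1.18 CPM and ATF3 at 166, 8.04 and 2.45 CPM in dogs 2, 3 and 4. ANKRD1 (ratio 31.1), SBK3, a kinase (36.2, 0.629 and 0.347 CPM), and FGF6, a growth factor of muscle (34.3, 5.50 and 0.578 CPM), were also highest in dog 2. FHL2, a LIM protein that binds titin, and ADH4, an alcohol dehydrogenase, were low in dog 2 alone: FHL2 stood at 1.16, 44.1 and 97.5 CPM and ADH4 at 0.586, 23.5 and 24.97 CPM. COL1A1, a chain of collagen I, and FNDC1, a protein with fibronectin domains, were highest in dog 3, at 42.9, 234 and 5.16 CPM and at 5.07, 61.1 and 1.76 CPM.

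The high FOS and EGR1 of dog 2 came with other genes of a list of RNA decay and stress markers. Of its 9 symbols 4 were found, FOS, JUN, EGR1 and the metallothionein MT2A, and all 4 were highest in dog 2, with a summed level of 672, 84.2 and 47.4 CPM in dogs 2, 3 and 4. Without the library of dog 2, 2 of the 4 had a ratio over 2. MT2A stood at 67.6, 3.59 and 9.65 CPM and JUN at 233, 76.3 and 34.3 CPM. Among further signal-driven genes, NR4A1, a nuclear receptor, stood at 213, 41.3 and 33.97 CPM and HBEGF, a ligand of the EGF receptor, at 82.6, 21.5 and 13.2 CPM. The 4 listed genes held 0.0622% of counts in the basal library of dog 2 and between 0.00453% and 0.0167% in the other basal, sample 1 and sample 2 libraries of dogs 2, 3 and 4. The 4 parted in samples 1 and 2. FOS and EGR1 were again highest in dog 2, whereas JUN and MT2A were highest in dog 4. MT2A stood at 18.7, 19.9 and 67.4 CPM in dogs 2, 3 and 4 in sample 1. The part of handling, RNA decay or stress of the biopsy in these levels was not tested.

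Matrix genes and most markers of fibroblasts, vessels and macrophages were highest in the basal library of dog 3. Of 73 matrix genes measured, 69 were highest in dog 3, against 35.2% of all genes and 1599 of the 2653 unsteady genes. Of 17 collagen genes, 16 were, and all 17 had a ratio over 2, against 10 of 17 without the library of dog 3. COL1A2 stood at 150, 915 and 33.5 CPM, COL3A1, the chain of collagen III, at 85.7, 538 and 17.4 CPM, and COL6A1, a chain of collagen VI around fibres, at 95.1, 321 and 24.1 CPM in dogs 2, 3 and 4. The summed collagen share was 0.0433%, 0.264% and 0.0130%, a 20.4-fold range, or 3.34-fold without dog 3. P4HB, an enzyme that modifies collagen and folds many other proteins, was 1 of the 2 steady matrix genes, at 82.3, 93.9 and 97.0 CPM. In the secreted class, 80 of 108 were highest in dog 3 and 25 in dog 2. A gene high in dog 3 alone could pass the filter through that library, and then counted as highest there. Without the library of dog 3, 67 matrix and 94 secreted genes passed the filter, against 73 and 108 with it. SERPING1, an inhibitor of complement, stood at 23.7, 90.7 and 13.3 CPM, whereas VEGFA, an angiogenic factor, stood at 97.9, 58.9 and 60.2 CPM. SELENOP, the selenium transport protein, had a ratio of 1.36.

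Markers of cells other than fibres were measured beside these genes. Of all genes, 35.2% were highest in dog 3, as were 1599 of the 2653 unsteady genes. All 12 fibroblast markers were highest in dog 3, with a summed level of 1078, 3806 and 469 CPM in dogs 2, 3 and 4, although this list shares DCN, GSN, COL1A1, COL1A2, COL3A1 and others with the matrix and secreted classes. PDGFRA, a fibroblast receptor outside those classes, stood at 6.89, 20.9 and 4.49 CPM. All 14 measured endothelial markers were highest in dog 3, with sums of 158, 556 and 236 CPM, and PECAM1 at 32.9, 108 and 35.2 CPM. Of 10 smooth muscle and pericyte markers, 9 were highest in dog 3, and their share without DES, which fibres express, was 0.0148%, 0.0343% and 0.0148%. Macrophage markers summed to 35.2, 83.0 and 27.1 CPM, with all 6 measured highest in dog 3. Adipocyte markers summed to 73.1, 179 and 126 CPM (4 of 6 highest in dog 3). Without the library of dog 3, 4 adipocyte markers passed the filter. Neutrophil markers summed to 41.1, 77.3 and 31.98 CPM (2 of 4, with the other 2 highest in dog 4). Markers of nerve and Schwann cells summed to 51.1, 78.1 and 29.7 CPM (3 of 4), and those of satellite cells, the muscle stem cells, to 323, 378 and 302 CPM (6 of 8). The lymphocyte sum of 116, 95.7 and 92.7 CPM was nearly all CD79A (98.9 CPM on average), and without it the list held at most 0.000470% of counts. MS4A1 of B cells, MPO of neutrophils and SLC4A1 of red cells had 0 counts in all 3, which allows up to 0.0439, 0.0521 and 0.0664 CPM, with no scaling factor, in dogs 2, 3 and 4. Red cell markers summed to 46.9, 40.3 and 36.0 CPM and those of skin keratinocytes to 64.3, 55.3 and 80.1 CPM, neither highest in dog 3. By library total alone, however, the red cell markers were highest there, at 0.00434%, 0.00456% and 0.00344% of counts. Without the library of dog 3, 7 of 12 fibroblast, 2 of 13 endothelial and 3 of 6 macrophage markers had a ratio over 2. The part of these cells in the matrix and secreted levels was not tested.

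The high matrix share of dog 3 was not seen in its other biopsies. Matrix genes held 0.262%, 0.247% and 0.119% in dogs 2, 3 and 4 in sample 1 and 0.110%, 0.166% and 0.191% in sample 2. The 0.677% in the basal library of dog 3 lay above all of these, and a different dog was highest in each of the 3 sets. Fibroblast markers went the same way, with 0.430% in the basal library of dog 3 against 0.116% and 0.0785% in its samples 1 and 2. Not every list did so. In sample 1, markers of smooth muscle and pericytes without DES were again highest in dog 3. They held 0.0282%, 0.0346% and 0.0186% in dogs 2, 3 and 4. So were adipocyte markers, at 0.0137%, 0.0158% and 0.0123%. Endothelial markers held 0.0493%, 0.0467% and 0.0254% there. In sample 2, all of these lists were highest in dog 4.

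Over all genes, the lists of unsteady genes overlapped in part between sets of biopsies. In sample 1, 16.3% of genes were unsteady over the same 3 dogs, and in sample 2, 17.3%. Of 2496 genes unsteady at basal and measured in sample 1, 1013 were unsteady there too, which is 40.6% of the basal and 62.9% of the sample 1 list, and 514 of them (50.7%) had the same dog highest, as did 47.2% of all genes measured in both sets. In sample 2, 1099 of 2401 were unsteady again (45.8% of the basal and 64.7% of the sample 2 list), 519 of them (47.2%) with the same dog highest, against 43% of all genes. These shares lay near those of all genes. Across genes, which are not independent, Pearson's r between the basal and the sample 1 log2 difference of a pair of dogs was 0.43 for dogs 2 and 4, 0.32 for dogs 2 and 3 and 0.44 for dogs 3 and 4, pairs that share libraries. Against sample 2 it was 0.43 and 0.49 for the pairs with dog 2 but -0.11 for dogs 3 and 4. Of 10115 genes measured in all 3 sets, 544 were unsteady in each, 274 of these with the same dog highest throughout. The share of all 10115 genes with the same dog highest in all 3 sets was not computed.

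Genes that differed strongly between dogs in every set were picked by a fixed ratio, so their large differences follow from that rule. Ratios over 10 were found in all 3 sets for 17 of 10115 genes. Of these 17, 13 had the same dog highest each time, 7 of them in dog 2. Among the 544 genes with ratios over 2 in all 3 sets, 274 had the same dog highest. For all 10115 genes this share was not computed. At basal, 33.4% of all genes were highest in dog 2. The named ones of the 13, chosen after their values were seen, were FOS, SBK3, TKTL1, TBX1, IRX5, GALNT13, SAR1A, CA7 and OOEP. SBK3 stood at 41.4, 0.514 and 0.957 CPM in sample 1 and at 65.0, 0.773 and 0.665 CPM in sample 2, in the same order of dogs 2, 3 and 4. TBX1, a T-box transcription factor, had 643, 74 and 1 basal counts, and IRX5, a homeobox transcription factor, had 589, 50 and 0. Both passed the filter through the level in dog 2 alone, as did SBK3 and SAR1A, the latter at 5.61, 0.967 and 0.370 CPM at basal. OOEP passed through the level in dog 3, at 0.143, 3.52 and 1.37 CPM at basal. Where the low libraries hold so few counts, the size of a ratio is uncertain. TKTL1, a transketolase-like protein, was high in dog 3, at 1.14, 25.9 and 1.249 CPM at basal. CA7, a carbonic anhydrase, and GALNT13, an enzyme of protein glycosylation, were low in dog 2, at 0.174 and 0.222 CPM. Seen from the low side, 11 genes with ratios over 10 in all 3 sets had the same dog lowest, 8 of them in dog 2. At basal, 3524 of all 10510 genes were lowest in dog 2. Among the 8 were FHL2, ADH4 and MICAL2, an enzyme that oxidises actin. FHL2 stood at 1.70, 54.7 and 43.8 CPM in sample 1 and at 1.03, 71.4 and 45.4 CPM in sample 2. EGR1, in contrast, had a ratio of 110 at basal but of 3.04 in sample 1 and 4.18 in sample 2.

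**Figure D5:**
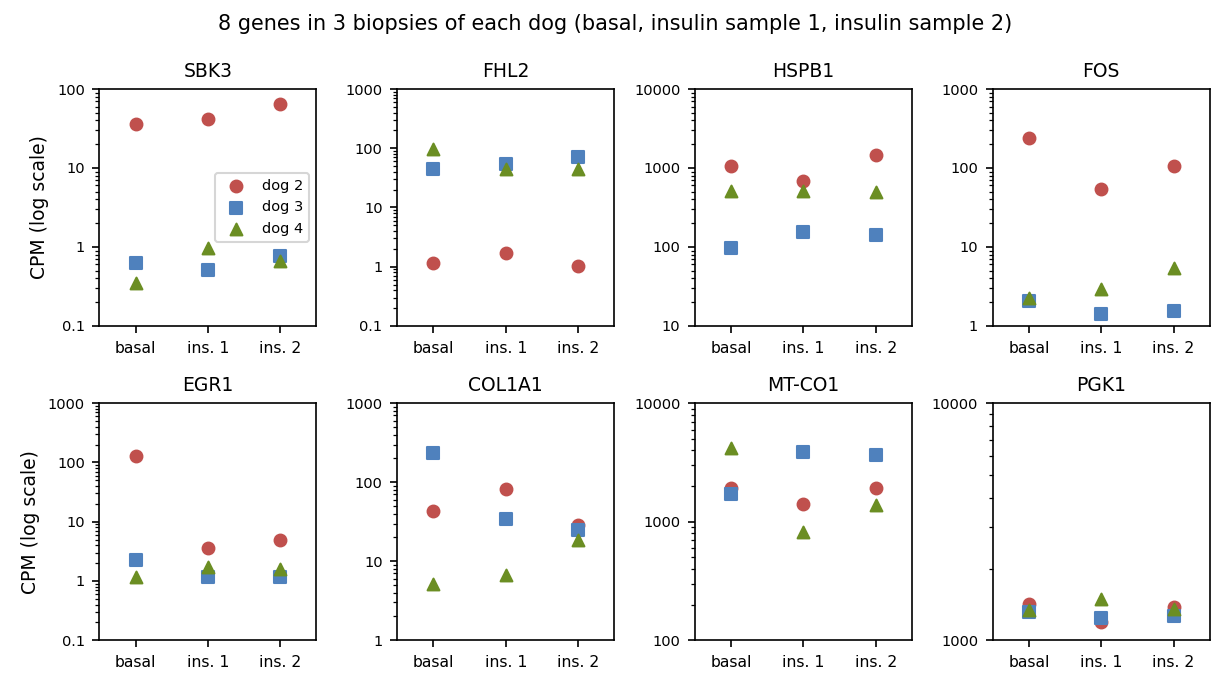
Level in CPM (log scale) of 8 genes in the basal, insulin sample 1 and insulin sample 2 biopsies of dogs 2, 3 and 4, each set scaled on its own, so that symbols are compared within a set. SBK3, FHL2 and HSPB1 keep dog 2 apart or on top in all 3 sets, while EGR1 of dog 2 stands far apart at basal alone, and the dog with the highest COL1A1 and MT-CO1 changes.

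Steady genes were also followed into the other biopsies. Of 10115 genes, 452 (4.47%) had a highest value no more than 25% above the lowest in all 3 sets. They were 19.7% of those steady at basal, a share that asks for steadiness in both other sets. In single sets, 22% of all genes were steady at basal, 29.8% in sample 1 and 26.6% in sample 2. The share of all genes steady in both samples 1 and 2 was not computed, so the 19.7% has no like comparison. Of the 452 genes, 43 had a mean of 100 CPM or more at basal. PGK1 was the highest, with ratios of 1.07, 1.249 and 1.09 in the 3 sets. Others were SLC25A12, the aspartate and glutamate carrier of mitochondria, NDUFS3, a subunit of complex I, the peroxiredoxins PRDX2 and PRDX6, PARK7, which protects against oxidative stress, and DYSF, the membrane repair protein dysferlin. DYSF stood at 177, 184 and 176 CPM in dogs 2, 3 and 4 at basal.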

How the data were processed

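RNA of 13 muscle biopsies was sequenced, and the 3 basal libraries were described. The authors deposited 1 table with raw read counts as whole numbers per gene, and a normalized signal, which is the count divided by 1 size factor per library. The signal deposited by the authors was used only to check the columns. Bowtie 0.12.2 and the CanFam3.1 build are named per the submitters' processing notes, without their roles. Which read counter, annotation and strand option were used is not given in the sources used here. Neither the SMART-Seq nor the Nextera XT kit marks strand, so counts may include reads of overlapping genes, and full-length cDNA gives longer transcripts more counts. PCR reads without molecular identifiers are not independent molecules, so counting errors and limits for 0 counts cover counting alone.

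From the counts, shares of the library total, CPM and ratios between libraries were computed with Python 3.11.15 and pandas 2.3.3. TMM factors came from edgeR 4.0.16 in R 4.3.3, computed within the basal, sample 1 and sample 2 sets separately, so that levels are compared within a set only. The basal factors were 0.925, 1.13 and 0.956 for dogs 2, 3 and 4. DESeq2 1.42.0 gave alternative size factors. The scripts were tested on simulated data. A gene was measured for steadiness with a mean of at least 1 CPM and at least 10 counts in at least 1 library. No test was made: 3 biopsies, 1 per dog, show spread between dogs and biopsies together.

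Classes came from 21 lists that matched 1125 genes by symbol, 18 of them written out by hand and 3 (nuclear oxidative phosphorylation, collagens and ribosomal proteins) set by a pattern of symbols, with each gene counted once, in the first list naming it. The lists are not complete, and genes in none of them held 35.4% of counts. Genes with no symbol, all of them in no list, held 8.18% of counts. The libraries, members and lists were chosen with earlier results of these data known. Named genes were the 25 of highest share, up to 8 of highest share in each list, 10 lncRNA genes, the 10 named genes with the highest and the 10 with the lowest ratio at a mean of at least 10 CPM, the myosin heavy chains and cell markers. Genes outside this rule are said in the text to be chosen later or come from the fibre type and repeat lists. The fibre type lists were written out by symbol, and the repeat lists were filled by a fixed ratio. Levels per coding length had been planned, and were not made because no lengths were at hand. A gene is not reported here and was left out of the list of reference genes.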

Additional observations from a re-analysis of the deposited data

How the results depend on the processing

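For 33 results, 163 values under other settings were computed: 54 of 64 under other totals, scalings, filters and thresholds and 73 of 99 with 1 library left out moved by less than the spread between replicates (shares), by no more than 1.5 times (counts of genes) or stayed within the 95% Wilson interval of the reported value (unsteady percentages of classes). That interval is wide for small classes, so that the energy buffer class counted as within it at 20% without dog 4, against 40%. For shares of genes, classes and heavy chains, leaving 1 of 3 libraries out moves the mean by less than their SD by construction. Such values could not count as moved, as with the matrix share at 0.121% without dog 3, against 0.307%. With ACTA1 left out of the total, the contractile share was 27.3%, transcription factors 1.35%, translation 1.57%, chaperones 0.606% and lncRNA 0.236%. The number of unsteady genes was 771 among genes with a mean of at least 10 CPM, 5731 with no CPM minimum, 5110 with a ratio over 1.5 and 1243 with a ratio over 3. Scaling by library total alone made 33.7% of transcription factors unsteady. With each library left out in turn, the remaining pair gave 904 to 2012 unsteady genes (lowest without dog 3) and 4165 to 5384 steady ones. A pair has a smaller range than 3 libraries by construction. The unsteady percentage then ran from 6.76% to 26.03% for contractile, 0% to 25% for calcium, 8.11% to 24.3% for glycolytic, 0% to 30% for energy buffer, 2.13% to 9.22% for mitochondrial, 41.8% to 92.1% for matrix, 43.6% to 73.2% for secreted, 12.9% to 23.4% for transcription factor, 2.5% to 5% for translation, 9.52% to 19.0% for chaperone and 19.1% to 27.4% for lncRNA genes. Counts per coding kilobase were not run, for want of lengths. No paired analysis was possible because the results come from no test. Groups of 3 were not searched for outliers.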

Other observations

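Genes often used as references in PCR differed in how steady they were at basal. This list was chosen after values had been seen, and 13 of its 17 symbols were found, all of which passed the filter. Their median ratio of the highest to the lowest basal library was 1.496, against 1.48 for all genes. PGK1 (1.07) and HPRT1 (1.24) were steady, TBP (1.32), RPL8 (1.33) and GAPDH (1.41) lay between, and EEF1A1 (2.504) and TFRC (11.7) had ratios over 2. TFRC, the transferrin receptor through which cells take up iron, stood at 67.2, 5.73 and 7.29 CPM in dogs 2, 3 and 4. Its ratio was 76.3 in sample 1 and 91.9 in sample 2. TFRC was not among the 13 genes with ratios over 10 in all 3 sets and the same dog highest. Nor was it among the 11 with the same dog lowest, so these ratios do not show the basal order of dogs again. ACTB, the cytoskeletal actin, had a ratio of 1.48 at basal and 2.498 in sample 2.

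Adipocyte genes were detected unevenly. PLIN1, which coats the fat droplet of adipocytes, stood at 0.0792, 20.9 and 0.393 CPM in dogs 2, 3 and 4, and CIDEA, another droplet protein, at 0.142, 11.4 and 1.48 CPM. LIPE, the hormone-sensitive lipase also found in fibres, stood at 8.60, 8.198 and 7.61 CPM, and PLIN4 at 53.5, 77.6 and 92.0 CPM. The satellite cell regulators PAX7 and MYF5 were low, at 1.17, 2.00 and 1.92 CPM and at 1.52, 1.86 and 2.06 CPM. Their ratios were 1.70 and 1.35, or 2.08 and 1.49 by library total alone. The developmental heavy chains MYH3 and MYH8 were measured at 75.7, 32.4 and 31.8 CPM and at 62.4, 20.7 and 24.9 CPM, highest in dog 2, and MYH13, known from eye muscles, stood at 15.98, 15.9 and 17.3 CPM.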
